A study of Homo sapiens with 18 samples.

Results

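The 10 genes described here encode inflammatory cytokines and chemokines that attract neutrophils: IL6, CXCL8, IL1A, IL1B, TNF, CXCL1, CXCL2, CXCL3, CCL20 and LIF. Their rows were found in the deposited count table by matching Ensembl identifiers without version to gene symbols, and all 10 were among its 35044 genes. RNA-seq was performed in HCC1937, an established BRCA1-mutated breast cancer cell line, carrying either an empty vector (HCC1937-EV) or a construct that overexpresses wild type BRCA1 (HCC1937-OE-BRCA1). Olaparib, an inhibitor of the PARP enzymes of DNA repair, was given at 10 µmol/L, and each line was sampled before it (0 h), at 12 h and at 24 h, with 3 libraries in each of the 6 conditions and 18 in all. The sample labels give olaparib as the treatment at 0 h too, and the genotype of HCC1937-EV as WT, whereas the study describes that condition as untreated and that line as BRCA1-mutated.  No source used here says that the 3 libraries of a condition came from separate cultures, so the p-values measure the spread between these libraries, which may be technical.

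These genes belong to an early arm of inflammation that epithelial cells can start themselves. IL-1α, IL-1β and TNF are alarm cytokines that switch on NF-kB, and NF-kB in turn drives the transcription of IL6, the CXC chemokines and CCL20 in neighbouring cells. CXCL1, CXCL2, CXCL3 and CXCL8 call neutrophils through CXCR1 and CXCR2, CCL20 calls lymphocytes and dendritic cells through CCR6, and IL-6 and LIF signal through the shared receptor chain gp130, encoded by IL6ST.

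Library totals lay between 15081973 and 17571922 counts. The lines differed far beyond these 10 genes: 39.4% of the 18335 tested genes were called higher and 33.3% lower in untreated HCC1937-OE-BRCA1 than in untreated HCC1937-EV (edgeR's quasi-likelihood test, Benjamini-Hochberg adjusted p under 0.05, the rule for every call below). All 6 epithelial markers tested were called higher in untreated HCC1937-OE-BRCA1, with a median log2 difference of 7.26. EPCAM, a surface marker of epithelial cells, had 1 count in the 3 untreated HCC1937-EV libraries and none at 12 h or 24 h, against 15015 counts in untreated HCC1937-OE-BRCA1. KRT5, a basal keratin, had 4 counts against 74877. KRT8 and KRT18 were abundant in both untreated lines. KRT8 measured 1890 against 3800 CPM and KRT18 875 against 1210 CPM (counts scaled to TMM-normalised library size, HCC1937-EV first). Of the 3 fibroblast markers tested, COL1A1 (4781 against 360 counts) and PDGFRB (396 against 1) were called lower in untreated HCC1937-OE-BRCA1 and COL3A1 (3 against 31) higher. BRCA1 itself measured 118 ± 7.7 CPM (mean ± SD, n = 3) in untreated HCC1937-EV and 138 ± 24 CPM in untreated HCC1937-OE-BRCA1, a difference that was not called (adjusted p = 0.0654). At 24 h BRCA1 was called higher in HCC1937-OE-BRCA1 (161 against 94.5 CPM, adjusted p = 3.17e-06). HCC1937-EV thus held KRT8 and KRT18, at lower levels than HCC1937-OE-BRCA1 when untreated, but almost no EPCAM or KRT5. The construct and these other differences between the lines cannot be told apart.

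In GENCODE 29 on GRCh38, CXCL8 (chromosome 4, 73740506 to 73743716) and CXCL1 (73869393 to 73871242) lie on the plus strand, and CXCL3 (74036589 to 74038807) and CXCL2 (74097035 to 74099293) on the minus strand of the same chemokine cluster. IL1A (chromosome 2, 112773915 to 112784590) and IL1B (112829751 to 112836903) are neighbours on the minus strand, and CCL20 (227805739 to 227817564, plus strand) lies further along that chromosome. IL6 lies on chromosome 7 (22725884 to 22732002, plus strand), TNF on chromosome 6 (31575567 to 31578336, plus strand) and LIF on chromosome 22 (30240447 to 30246851, minus strand). All are protein-coding, and the counts were made per gene.

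CXCL1 was the most abundant neutrophil chemokine, and it was read only in HCC1937-OE-BRCA1. All 9 HCC1937-EV libraries had 0 counts of it, which allows at most 0.0619, 0.0647 and 0.0593 CPM over the 3 libraries at 0, 12 and 24 h (3 counts per group, counting error only). In untreated HCC1937-OE-BRCA1 the libraries held 5.91, 8.75 and 4.53 CPM. After 12 h with olaparib they held 12.8, 14.7 and 13.5 CPM, and after 24 h 18.4, 18.8 and 15.1 CPM. The 3 conditions of this line did not overlap for CXCL1. In bulk libraries like these, fewer cells that express a gene and less of its RNA per cell cannot be told apart.

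CXCL8, which encodes interleukin-8, had the same distribution between the lines at a lower level. It also had 0 counts in all 9 HCC1937-EV libraries. In HCC1937-OE-BRCA1 it measured 1.29, 0.862 and 0.63 CPM untreated, 1.57, 2.06 and 1.65 CPM at 12 h, and 1.97, 2.64 and 3.0 CPM at 24 h. Both treated conditions lay above the untreated libraries, and they overlapped each other.

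CXCL2 and CXCL3, the close relatives of CXCL1, were low in both lines. CXCL2 measured 0.621, 0.0618 and 0.308 CPM in untreated HCC1937-EV and 0.554, 0.678 and 0.441 CPM in untreated HCC1937-OE-BRCA1. At 12 h it measured 0.768, 0.188 and 0.339 CPM in HCC1937-EV and 0.754, 0.786 and 0.763 CPM in HCC1937-OE-BRCA1. With olaparib for 24 h it measured 0.118, 0.295 and 0.359 CPM in HCC1937-EV and 0.983, 0.982 and 0.613 CPM in the other line, so the lines overlapped at 0 h and 12 h and separated at 24 h. CXCL3 had between 1 and 15 counts in every library, too few for the test. Its group means lay between 0.152 and 0.257 CPM in HCC1937-EV and between 0.269 and 0.614 CPM in HCC1937-OE-BRCA1.

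The promoters of these chemokines are shown because NF-kB sites lie in them, and because 3 of them are nearly the same sequence. Each line below holds the 120 bases before the RefSeq start on the gene's own strand (GRCh38.p14), with the NF-kB site in capitals (the NF-kB consensus or GGAATTTCC, searched on both strands). The windows are chr4:73869273-73869392 on the plus strand for CXCL1, chr4:74099196-74099315 on the minus strand for CXCL2, chr4:74038690-74038809 on the minus strand for CXCL3, chr4:73740449-73740568 on the plus strand for CXCL8 and chr7:22727080-22727199 on the plus strand for IL6.
CXCL1: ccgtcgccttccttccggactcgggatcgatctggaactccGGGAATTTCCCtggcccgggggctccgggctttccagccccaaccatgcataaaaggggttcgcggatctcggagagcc
CXCL2: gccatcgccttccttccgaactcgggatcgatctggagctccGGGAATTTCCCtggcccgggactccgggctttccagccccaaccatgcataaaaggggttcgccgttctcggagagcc
CXCL3: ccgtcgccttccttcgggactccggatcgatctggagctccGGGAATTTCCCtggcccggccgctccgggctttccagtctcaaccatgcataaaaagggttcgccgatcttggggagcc
CXCL8: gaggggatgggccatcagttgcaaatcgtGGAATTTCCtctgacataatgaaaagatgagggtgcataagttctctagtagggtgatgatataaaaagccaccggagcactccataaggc
IL6: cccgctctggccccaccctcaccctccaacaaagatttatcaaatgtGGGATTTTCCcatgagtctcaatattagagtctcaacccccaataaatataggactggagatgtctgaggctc

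In CXCL1 and CXCL3 the site ran from position -79 to -69 before the start, in CXCL2 from -78 to -68, in CXCL8 from -91 to -83 and in IL6 from -73 to -64. The aligned CXCL1 and CXCL2 windows were 95% identical, and those of CXCL1 and CXCL3 90.8%. Over the 250 bases before the start, the NF-kB consensus was found in 5 of the 9 members with a promoter entry (IL6, CXCL1, CXCL2, CXCL3 and CCL20). It was found in 9.96% of 35116 promoters of that length. For every motif a member was counted if any of its promoter entries held it, whereas the shares are per promoter entry. GGAATTTCC was found in 4 members (CXCL8, CXCL1, CXCL2 and CXCL3) and in 0.413% of promoters, and in CXCL1, CXCL2 and CXCL3 it overlaps the consensus. The other motifs searched on both strands were TGANTCA, the core of an AP-1 site, in 2 members (CXCL8 and IL1A) and 6.57% of promoters, TTGCNNAA, a C/EBP core, in 3 members (IL6, IL1B and CXCL2) and 9.05% of promoters, and TATAAA in 4 members (CXCL8, IL1A, TNF and CCL20) and 10.7% of promoters. In the same HCC1937-EV libraries CXCL1 was without a count and CXCL2 had counts. The transcripts are close too: those of CXCL1 and CXCL2 were 90.5% identical over aligned bases with an identical run of 77 bases, and those of CXCL2 and CXCL3 83.3% with a run of 97 bases. How reads shared by these genes were counted is not given in the sources used here, so the low values of CXCL2 and CXCL3 are uncertain.

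Among the deposited genes of the chemokine cluster of chromosome 4, those without counts in HCC1937-EV lay together. PF4V1, between CXCL6 and CXCL1, and PF4, PPBP and CXCL5, between CXCL1 and CXCL3, were absent from the deposited counts of both lines. CXCL8, CXCL6 and CXCL1, in this order along GRCh38 between 73740506 and 73871242, summed to 0 counts over 9 HCC1937-EV libraries and to 254, 168 and 1820 over 9 HCC1937-OE-BRCA1 libraries. CXCL6, another ligand of the neutrophil receptors, was at least 16.0-fold higher in untreated HCC1937-OE-BRCA1 (adjusted p = 2.76e-05, edgeR). CXCL6 passed the filter on low counts through HCC1937-OE-BRCA1, which favours such a call. CXCL3 and CXCL2, between 74036589 and 74099293 in the same cluster, had 32 and 49 counts in HCC1937-EV against 64 and 106.

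**Figure D1:**
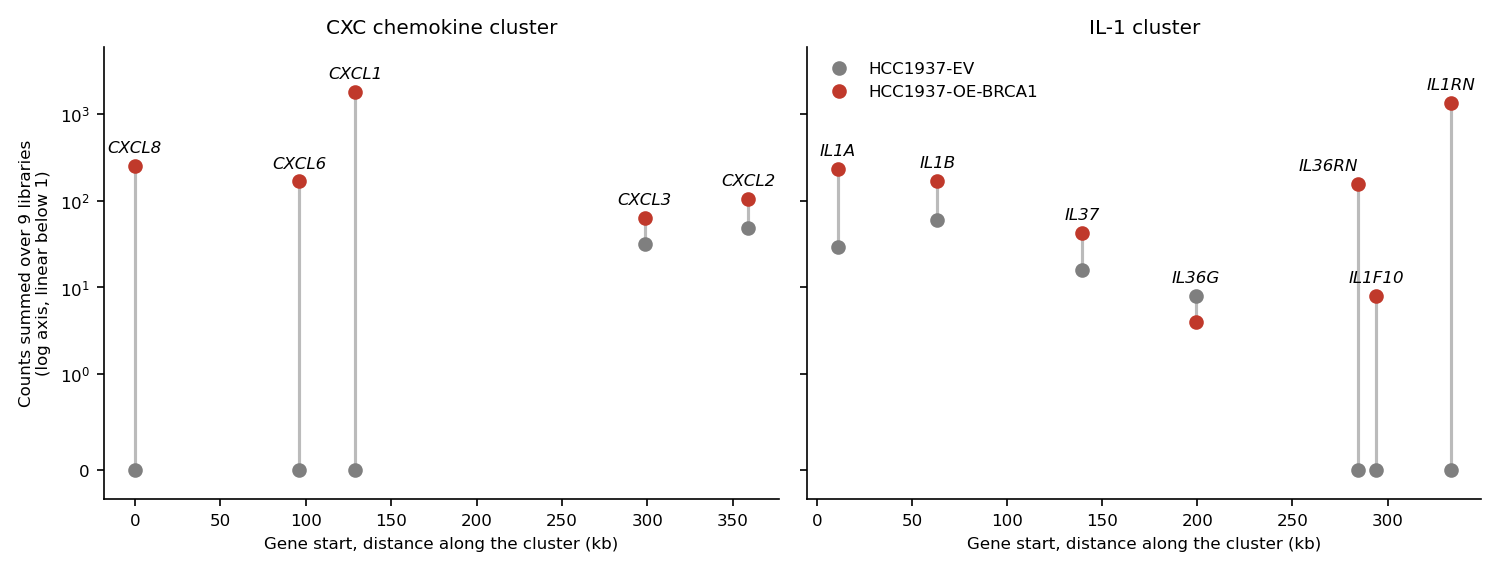
Counts summed over the 9 libraries of each line (vertical axis, logarithmic, linear below 1) for the genes in the table, against the distance of the gene's start along the CXC chemokine cluster (left) and the IL-1 cluster (right) in kb; grey points are HCC1937-EV and red points HCC1937-OE-BRCA1. CXCL8, CXCL6 and CXCL1 in the first cluster, and IL36RN, IL1F10 and IL1RN in the second, had 0 counts in HCC1937-EV, and IL36G alone had more counts in HCC1937-EV, 8 against 4.

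CCL20, the ligand of CCR6, was barely read. It had 0 counts in all HCC1937-EV libraries. In HCC1937-OE-BRCA1 it had 4, 2 and 2 counts untreated, 6, 3 and 1 at 12 h, and 11, 5 and 2 at 24 h. The conditions overlapped, and the gene was below the filter for testing.

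The IL-1 genes were present in both lines. IL1A, whose product is released from damaged epithelial cells as an alarm signal, measured 0.186, 0.247 and 0.123 CPM in untreated HCC1937-EV, 0.448, 0.125 and 0.136 CPM at 12 h, and 0.059, 0.177 and 0.3 CPM at 24 h. The levels in HCC1937-OE-BRCA1 were 0.924, 0.678 and 0.567 CPM untreated, 1.13, 1.69 and 1.78 CPM at 12 h, and 2.76, 2.46 and 2.51 CPM at 24 h. The 3 conditions of HCC1937-OE-BRCA1 did not overlap, whereas those of HCC1937-EV did.

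IL1B, which encodes the form of IL-1 that needs cleavage by caspase-1, measured 0.8, 0.678 and 0.567 CPM in untreated HCC1937-OE-BRCA1, 1.32, 1.03 and 1.08 CPM at 12 h, and 1.23, 2.39 and 1.41 CPM at 24 h. In HCC1937-EV it measured 0.124, 0.556 and 0.555 CPM untreated, 0.192, 0.25 and 0.204 CPM at 12 h, and 0.59, 0.825 and 0.359 CPM at 24 h. Replicate 2 at 24 h stood above the other HCC1937-OE-BRCA1 libraries.

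Genes for the antagonist and the processing of IL-1 were also compared between the lines. Of 6 genes for the antagonist, processing and shedding, 5 were tested, and 4 were called higher and none lower in HCC1937-OE-BRCA1 at each time, where 39.4%, 38.8% and 39.9% of all tested genes were called higher at 0, 12 and 24 h. IL1RN, the receptor antagonist and the last gene of the IL-1 cluster on chromosome 2, had 0 counts in HCC1937-EV and was at least 97.3-fold higher in untreated HCC1937-OE-BRCA1 (6.02 ± 0.35 CPM, adjusted p = 4.16e-11). CASP1, which encodes caspase-1, measured 29.9 ± 3.26 CPM against 0.124 ± 0.0623 CPM. PYCARD, the adaptor that assembles the inflammasome, had 815 counts against 0. IL1RN, CASP1 and PYCARD passed the filter on low counts through HCC1937-OE-BRCA1, where they were higher, which favours such a call.

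IL6 was read almost only in HCC1937-OE-BRCA1, with 1 count among the 9 HCC1937-EV libraries, at 24 h. In HCC1937-OE-BRCA1 it measured 2.46, 1.66 and 1.32 CPM untreated, 2.01, 2.36 and 3.31 CPM at 12 h, and 5.59, 4.48 and 4.05 CPM at 24 h. The 12 h libraries overlapped the untreated ones, and the 24 h libraries lay above both. The IL6 exons overlap those of STEAP1B by 46 bases and of the antisense gene AC073072.1 by 428 bases, and the strand setting of the counting is not given in the sources used here. Those genes had 21 and 16 counts over the 18 libraries.

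LIF, a cytokine of the IL-6 family, was the only member with a substantial level in both lines. In HCC1937-EV it measured 11.6, 14.3 and 11.6 CPM untreated, 9.93, 14.5 and 17.2 CPM at 12 h, and 13.3, 13.1 and 14.6 CPM at 24 h. The levels in HCC1937-OE-BRCA1 were 18.1, 23.1 and 25.8 CPM untreated, 35.0, 33.8 and 32.7 CPM at 12 h, and 34.0, 31.4 and 32.9 CPM at 24 h. Every HCC1937-OE-BRCA1 library lay above every HCC1937-EV library, and both treated conditions lay above the untreated one in HCC1937-OE-BRCA1. LIF exons overlap the antisense gene AC004264.1 by 175 bases, which had 371 counts over the 18 libraries.

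TNF was near the limit of detection everywhere. It had 1 count among the 9 HCC1937-EV libraries, and in HCC1937-OE-BRCA1 0, 2 and 2 counts untreated, 2, 4 and 1 at 12 h, and 3, 3 and 0 at 24 h. No change in it was detectable at this depth.

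Per kilobase of exon, the order of the mean levels at 24 h in HCC1937-OE-BRCA1 was CXCL1 (13.5 CPM per kb), LIF (8.26), IL6 (2.27), IL1A (1.21), CXCL8 (1.12), CXCL2 (0.573), IL1B (0.542), CXCL3 (0.277), CCL20 (0.231) and TNF (0.0733). The libraries of IL1A and CXCL8 overlapped on this scale, as did those of each neighbouring pair from CXCL2 to TNF, while CXCL1, LIF and IL6 stood apart from their neighbours. In HCC1937-EV at 24 h LIF led with 3.44 CPM per kb, and the next was IL1B with 0.191 CPM per kb.

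**Figure D2:**
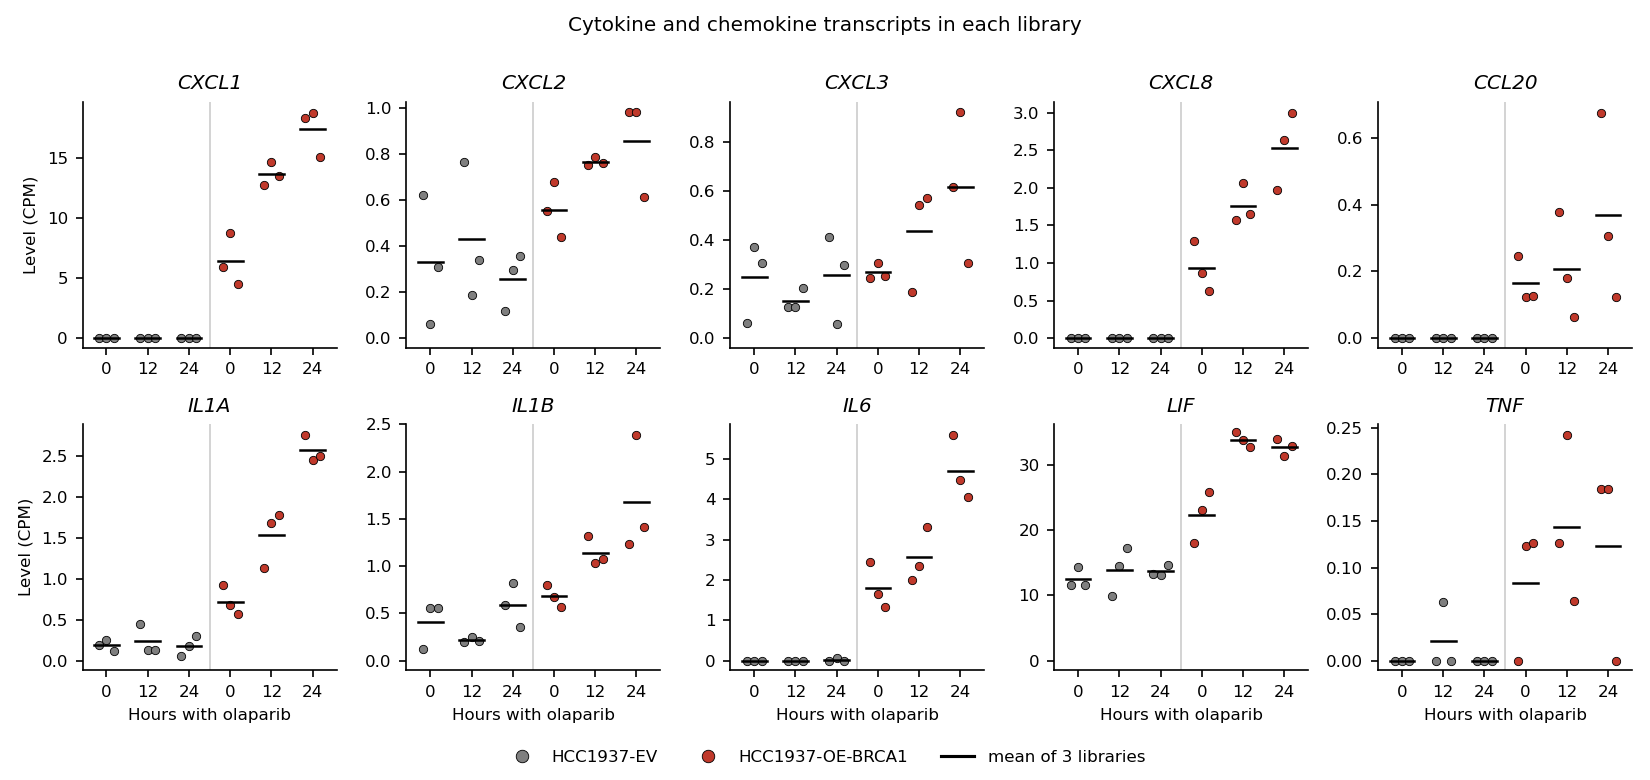
Level of each of the 10 genes in CPM (vertical axes, each from 0 and with its own scale) in each library against hours with olaparib, for HCC1937-EV (grey) and HCC1937-OE-BRCA1 (red); each point is a library and the bar is the mean of 3. CXCL1, CXCL8 and CCL20 lie at 0 in all HCC1937-EV libraries, and CXCL1 in HCC1937-OE-BRCA1 climbs from a mean of 6.4 CPM untreated to 17.4 CPM at 24 h.

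The first question was how these genes changed with olaparib within HCC1937-OE-BRCA1. Of the 10 members, 7 passed the filter on low counts (not TNF, CXCL3 or CCL20), and a filter passed through the high group favours a difference. After 12 h CXCL1 rose by 1.09 on the log2 scale (SE 0.212, adjusted p = 0.00986, edgeR), from 6.4 ± 2.15 to 13.6 ± 0.981 CPM. LIF rose by 0.60 (SE 0.156, adjusted p = 0.0436), from 22.3 ± 3.89 to 33.8 ± 1.17 CPM. These were the calls at 12 h, 2 of 7, where 1.7% of all tested genes were called higher and 0.605% lower. IL1A, with a log2 difference of 1.08, CXCL8 with 0.92, IL1B with 0.74, CXCL2 with 0.46 and IL6 with 0.49 were not called. The median log2 difference of the 7 was 0.74, beside 0.0037 over all tested genes.

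After 24 h 5 of the 7 were called higher and none lower, where 4.71% of tested genes were called higher and 3.55% lower. IL1A rose by 1.82 (SE 0.374, adjusted p = 0.00401, edgeR). CXCL1 rose by 1.44 (SE 0.211, adjusted p = 0.000605) and CXCL8 by 1.44 (SE 0.364, adjusted p = 0.0252). IL6 rose by 1.37 (SE 0.308, adjusted p = 0.0111), and LIF by 0.56 (SE 0.156, adjusted p = 0.0314). IL1B had a log2 difference of 1.29 (SE 0.405, adjusted p = 0.0534) and CXCL2 of 0.62 (SE 0.514, adjusted p = 0.511), and neither was called. The median of the 7 was 1.37, beside 0.0243 over all tested genes.

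Several of these calls rested on single libraries. At 12 h the call of CXCL1 was lost without HCC1937-OE-BRCA1 12 h replicate 2 (adjusted p = 0.0587, range over 14 alternatives 2.28e-05 to 0.0587), and that of LIF was lost on leaving out any of 5 of the 6 libraries (range over 15 alternatives 0.00297 to 0.174), holding without untreated replicate 3. At 24 h CXCL1 and IL1A were called in all 6 fits that left out a library. IL6 was not called without untreated replicate 2 (adjusted p = 0.0534), untreated replicate 3 (0.0584) or 24 h replicate 1 (0.0618), within a range of 0.00118 to 0.0618 over 14 alternatives. CXCL8 was not called without untreated replicate 2 (0.104) or 3 (0.105), or 24 h replicate 2 (0.0804) or 3 (0.121), within 0.0116 to 0.121 over 13 alternatives, and DESeq2 did not call it. LIF at 24 h was called in 1 of the 6 fits, the one without untreated replicate 3, and its adjusted p ranged from 0.000373 to 0.104 over 15 alternatives. IL1B was called without untreated replicate 1 (0.0457) and with a correction for GC content and length (0.0391), within 0.0391 to 0.242 over 13 alternatives. The count at 24 h fell from 5 to 2 without untreated replicate 2 and to 3 without untreated replicate 3 or any single 24 h library. Fitted without the HCC1937-EV libraries, 1 member was called at 12 h and 4 at 24 h, LIF being lost at both times.

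Between 12 h and 24 h in HCC1937-OE-BRCA1 none of the 7 was called by edgeR or DESeq2, while 0.791% of tested genes were called higher and 0.862% lower. IL6, with a log2 difference of 0.88 (SE 0.298, adjusted p = 0.151, edgeR), and IL1A, with 0.75 (SE 0.344, adjusted p = 0.267), were the 2 members with an unadjusted p under 0.05, and their 24 h libraries all lay above the 12 h ones. LIF differed by -0.04 (SE 0.154). In a fit of only these 6 libraries IL6 (adjusted p = 0.0161, range over 13 alternatives 0.0161 to 0.469) and CXCL1 (0.0486, range over 14 alternatives 0.0486 to 0.681) were called.

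In HCC1937-EV no member was called at either time. A fold could be formed for IL1A, IL1B, CXCL2 and LIF, the other 3 tested members having at most 1 count. At 12 h none of these 4 had an unadjusted p under 0.05 and DESeq2 called none, beside 0.0273% of tested genes called higher and 0.0164% lower. At 24 h the result was the same, 0 by either tool and 0 at an unadjusted p under 0.05, beside 8.62% of tested genes called higher and 5.12% lower. LIF had a log2 difference of 0.15 (SE 0.165) at 12 h and 0.13 (SE 0.164) at 24 h, and the interval of the latter ran from -0.19 to 0.45. IL1B, IL1A and CXCL2 had few counts. Their intervals at 24 h were wider, -0.43 to 1.46, -1.34 to 1.22 and -1.63 to 0.93. That of IL1B included its log2 difference of 1.29 in HCC1937-OE-BRCA1. From 12 h to 24 h 0.136% of tested genes were called higher and 0.0436% lower, and no member was called by edgeR or DESeq2. IL1B was the 1 member with an unadjusted p under 0.05, with a log2 difference of 1.43 (SE 0.546, adjusted p = 0.437, edgeR) and all 3 of the 24 h libraries above those at 12 h.

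**Figure D3:**
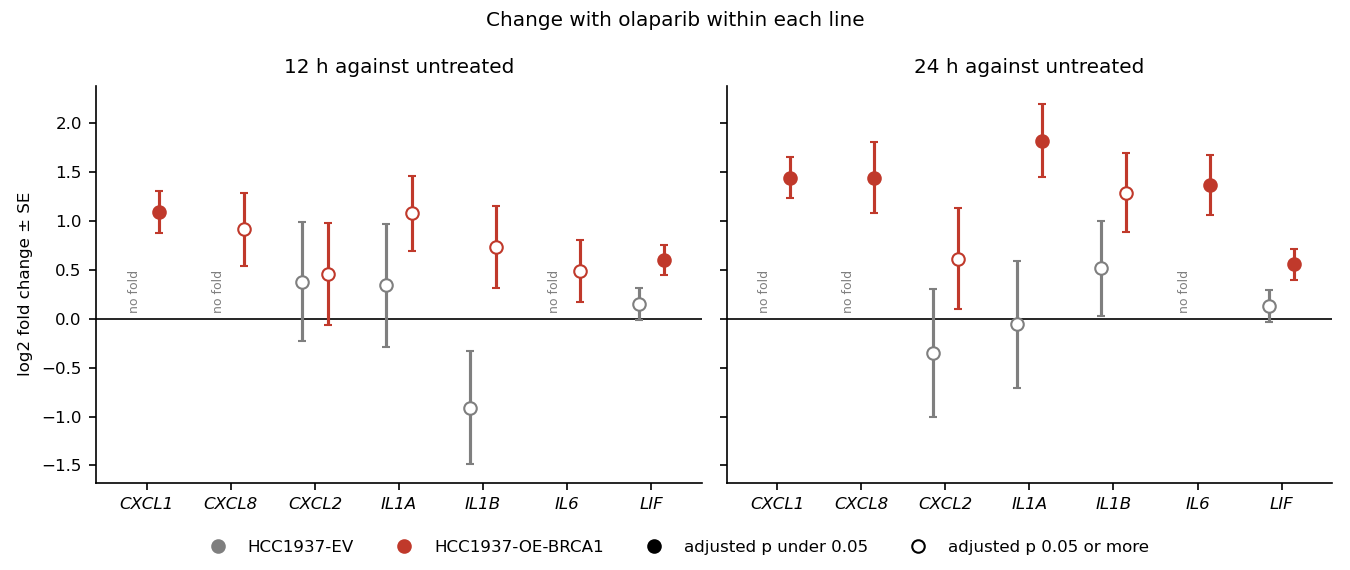
Log2 fold change with its SE at 12 h (left) and 24 h (right) against untreated, from edgeR, for the 7 tested genes in HCC1937-EV (grey) and HCC1937-OE-BRCA1 (red); filled points are called and open points not. At 24 h 5 of the red points are filled, from 0.56 for LIF to 1.82 for IL1A, no grey point is filled, and "no fold" marks genes with at most 1 count in the HCC1937-EV groups compared.

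Whether the 2 lines differed in their response was tested directly for the 4 members with a fold in both, and none was called by edgeR or DESeq2. At 12 h 0.376% of tested genes had a called higher response in HCC1937-OE-BRCA1 than in HCC1937-EV and 0.142% a lower one, and at 24 h the shares were 8.16% and 11.2%. IL1A at 24 h had a difference of responses of 1.88 (SE 0.78, adjusted p = 0.0946, edgeR) and was the 1 member with an unadjusted p under 0.05 at that time. IL1B at 12 h had 1.65 (SE 0.716, adjusted p = 0.296) and was the 1 such member then. LIF at 24 h had 0.43 (SE 0.226, adjusted p = 0.195), an interval of -0.02 to 0.87, and was called with the correction for GC content and length (adjusted p = 0.00369, range over 21 alternatives 0.00369 to 0.403). For CXCL1, CXCL8 and IL6 no response can be formed in HCC1937-EV, so a difference of responses cannot be given.

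Between the lines, untreated, 5 of the 7 tested members were called higher in HCC1937-OE-BRCA1 and none lower, where the background shares were the 39.4% and 33.3% given above. Of these 7, all but LIF passed the filter on low counts through HCC1937-OE-BRCA1, where they were higher, which favours such a call. CXCL1 was at least 104-fold higher (adjusted p = 1.35e-09, edgeR), IL6 at least 29.4-fold (adjusted p = 1.82e-07) and CXCL8 at least 15-fold (adjusted p = 6.81e-06), against 3 counts over the HCC1937-EV group. IL1A was higher by 1.92 on the log2 scale (SE 0.522) and LIF by 0.84 (SE 0.162). IL1B, with 0.72 (SE 0.478), and CXCL2, with 0.74 (SE 0.585), were not called. CCL20 and TNF, untested, were at least 2.67-fold and 1.34-fold higher by their summed counts.

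At 12 h 6 of 7 were called higher, IL1B joining with 2.36 (SE 0.506, adjusted p = 0.00029, edgeR), beside 38.8% of tested genes called higher and 34.1% lower. CXCL2 was not called at 12 h, with 0.82 (SE 0.544), except without HCC1937-EV 12 h replicate 1 (adjusted p = 0.0402, range over 14 alternatives 0.0402 to 0.496). At 24 h all 7 were called higher, beside 39.9% called higher and 34% lower. The limit of the filter given for the untreated lines holds for the counts at both times. CXCL1 was then at least 294-fold and CXCL8 at least 42.8-fold higher, and IL6 had a ratio of 238 with a counting interval of 42.3 to 9440. CXCL2 was higher by 1.71 (SE 0.573, adjusted p = 0.0109), a call lost without HCC1937-EV 24 h replicate 1 (adjusted p = 0.0569, range over 14 alternatives 0.0048 to 0.0569). IL1A was higher by 3.8 (SE 0.459), IL1B by 1.49 (SE 0.41) and LIF by 1.26 (SE 0.16). These comparisons share their libraries with the responses above.

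Markers of cell types also differed between the lines and with olaparib, in both directions. Leukocyte markers, all 8 with a count in HCC1937-OE-BRCA1, summed to between 39.8 and 55.2 CPM untreated, 82.2 and 91.2 at 12 h and 77.6 and 94.2 at 24 h, against 6.25 to 11.1 CPM in HCC1937-EV. CD14, a co-receptor for bacterial lipopolysaccharide made by monocytes and also by epithelial cells, supplied most of it, with 40.6 ± 8.39 CPM untreated and 77.9 ± 7.66 CPM at 24 h (log2 rise 0.94, adjusted p = 0.000342, edgeR). PTPRC, which defines leukocytes, had 0 counts in HCC1937-EV and 53, 45 and 60 counts in the HCC1937-OE-BRCA1 conditions. CSF1R, the receptor of the macrophage growth factor CSF1, went the other way, with 438 counts in untreated HCC1937-EV and 18 in untreated HCC1937-OE-BRCA1, and was the 1 of 5 tested leukocyte markers called lower in HCC1937-OE-BRCA1 at each time. The other 4 were called higher at each time. Over all tested genes 39.4%, 38.8% and 39.9% were called higher at 0, 12 and 24 h, and 33.3%, 34.1% and 34% lower. With olaparib 1 of the 5 was called higher at 12 h and 2 at 24 h in HCC1937-OE-BRCA1, beside 1.7% and 4.71% of all tested genes. FCGR3B, a neutrophil Fc receptor, had 4 counts untreated and 49 at 24 h. All 3 endothelial markers had counts in both lines and summed to 1.11 to 2.89 CPM in HCC1937-EV and 17.2 to 27.0 CPM in HCC1937-OE-BRCA1. Fibroblast markers, all 5 with a count in HCC1937-OE-BRCA1, summed to 97.1 to 153 CPM in HCC1937-EV, where COL1A2 and COL3A1 had none at 12 h and DCN none at 24 h, and to 6.96 to 12.4 CPM in HCC1937-OE-BRCA1. Epithelial markers, all 6 with a count in HCC1937-OE-BRCA1 and all but EPCAM at 12 h and 24 h in HCC1937-EV, summed to 2420 to 3160 CPM and 5040 to 8220 CPM. Of these 6 epithelial markers 4 were called lower at 24 h in HCC1937-OE-BRCA1, where 3.55% of all tested genes were. Among them were the keratins KRT5 (log2 -0.47), KRT8 (-0.50) and KRT18 (-0.56). The part of these markers in the results was not tested.

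The receptors of these cytokines were found on both sides. Of 11 receptor genes 8 were tested, and 3 were called lower at every time in HCC1937-OE-BRCA1, while 3 were called higher untreated and 4 at 12 h and at 24 h. Over all tested genes 39.4% were called higher and 33.3% lower untreated, so the receptors were near the background. LIFR, the specific receptor chain for LIF, measured 290 ± 15.5 CPM in untreated HCC1937-EV and 1.34 ± 0.452 CPM in untreated HCC1937-OE-BRCA1, a log2 difference of -7.74 (SE 0.215, adjusted p = 1.13e-17, edgeR), so LIF was higher in the line whose LIFR was lower. IL1RAP, the shared chain of the IL-1 receptor, measured 3.88 ± 0.943 CPM in HCC1937-EV and 90.8 ± 3.73 CPM in HCC1937-OE-BRCA1 at 24 h. IL1R2, a decoy receptor that binds IL-1 without signalling, was at least 18.4-fold higher in untreated HCC1937-OE-BRCA1. IL1R2 passed the filter on low counts through that line, which favours such a call.

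With olaparib none of the receptors was called at 12 h in either line by edgeR or DESeq2, with 1 in HCC1937-EV and 2 in HCC1937-OE-BRCA1 at an unadjusted p under 0.05. Over all tested genes 0.0273% were then called higher and 0.0164% lower in HCC1937-EV, and 1.7% and 0.605% in HCC1937-OE-BRCA1. At 24 h edgeR called 1 of 8, TNFRSF1B, a TNF receptor, higher in HCC1937-OE-BRCA1, where 4.71% of all tested genes were called higher. It called 1 of 7, IL6ST, lower in HCC1937-EV, where 5.12% were called lower. TNFRSF1B went from 37 to 116 counts (adjusted p = 0.0469), a call that DESeq2 did not make and that was lost without untreated replicate 2 or 3 or any 24 h library (range over 13 alternatives 0.00872 to 0.2). IL6ST went from 201 ± 20.8 to 123 ± 17.2 CPM (log2 -0.71, adjusted p = 0.0153), a call lost without untreated replicate 1 (adjusted p = 0.0812), 24 h replicate 1 (0.0616) or 24 h replicate 2 (0.0801), within 1.57e-06 to 0.0812 over 15 alternatives. The neutrophil receptors CXCR1 and CXCR2 had at most 7 counts in any condition.

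**Figure D4:**
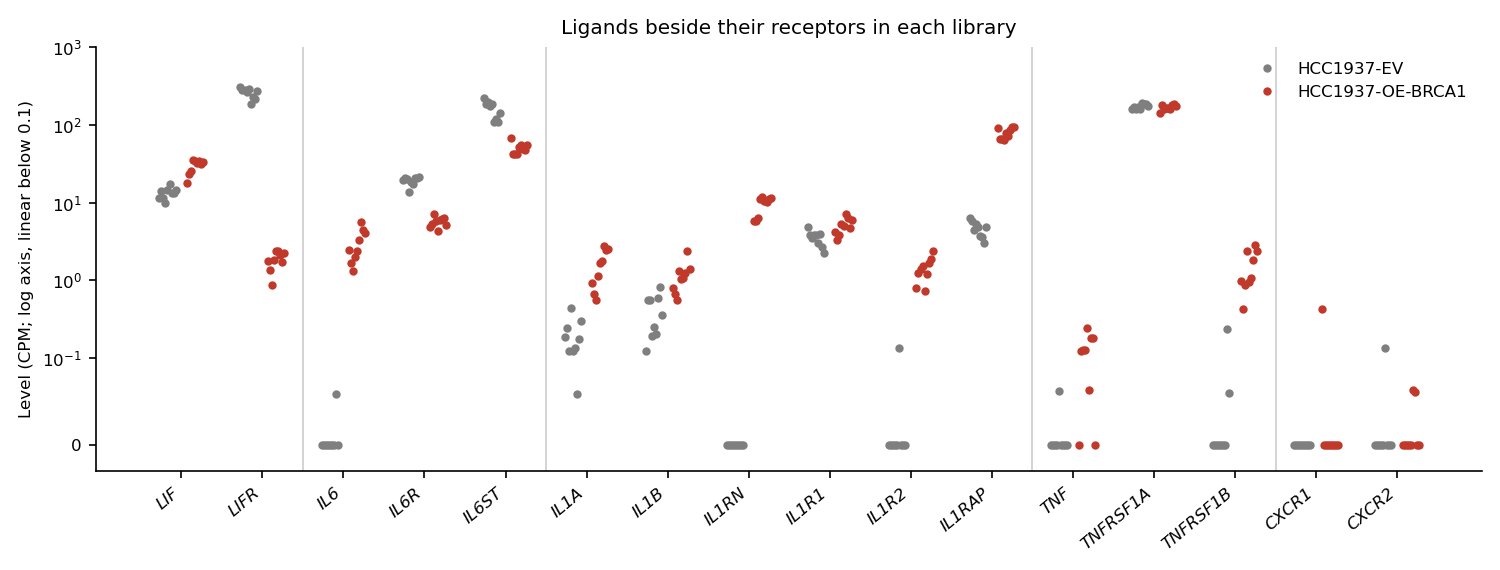
Level in CPM (vertical axis, logarithmic, linear below 0.1) of cytokines, the antagonist IL1RN and receptors in each of the 9 libraries of HCC1937-EV (grey) and HCC1937-OE-BRCA1 (red), with vertical lines between families. LIF is higher in HCC1937-OE-BRCA1 while LIFR has a mean of 290 CPM in untreated HCC1937-EV and 1.34 CPM in untreated HCC1937-OE-BRCA1, and TNFRSF1A is at 162 CPM in both untreated lines.

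IL1RN, the antagonist, was called higher in HCC1937-OE-BRCA1 at both times. IL1A was called at 24 h alone and IL1B at neither time. Their log2 differences at 24 h, 1.82 and 1.29, were larger than that of IL1RN, but with larger SEs (0.374 and 0.405). At 12 h that of IL1A, 1.08, was larger and that of IL1B, 0.74, smaller than that of IL1RN. Whether IL1RN and these cytokines differed in their response was not tested. IL1RN rose by 0.89 at 12 h (SE 0.162, adjusted p = 0.00606, edgeR) and by 0.86 at 24 h (SE 0.162, adjusted p = 0.00416), from 6.02 ± 0.35 to 11.1 ± 0.625 and 11 ± 0.733 CPM. CASP1 was called higher at 24 h (log2 0.53, SE 0.145, adjusted p = 0.0288), a call lost without untreated replicate 3 (adjusted p = 0.118) or any 24 h library (0.0628, 0.0977 and 0.104), within 0.000689 to 0.118 over 14 alternatives. By edgeR these were 1 of 5 genes of this list with a fold at 12 h and 2 of 5 at 24 h. Over all tested genes 1.7% and 4.71% were called higher. In HCC1937-EV edgeR called none of 3 at 12 h and 1 of 3 at 24 h, where 8.62% of all tested genes were called higher. This was GSDMD, which encodes the pore protein gasdermin D, with a log2 rise of 0.71 (SE 0.156, adjusted p = 0.00799). DESeq2 called GSDMD and also ADAM17, whose log2 difference was negative in edgeR.

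Of 11 transcription factors known to act on such promoters, all were tested. ATF3, a stress-induced factor, was called higher in HCC1937-OE-BRCA1 at 12 h (log2 0.85, SE 0.106, adjusted p = 3.85e-05, edgeR), and no other was called then, where 1.7% of all tested genes were called higher. At 24 h 3 were called higher and 1 lower, where 4.71% and 3.55% of all tested genes were. ATF3 was again called higher, by 0.90 (SE 0.106, adjusted p = 1.15e-05). NFKBIZ, an atypical IkB that promotes IL6 transcription, was called higher by 0.57 (SE 0.13), a call lost without untreated replicate 2 (adjusted p = 0.0605) or 24 h replicate 3 (0.0567), within 0.000821 to 0.0605 over 15 alternatives. NFKB2, which encodes the p100 precursor of the alternative NF-kB pathway, fell by 0.86 (SE 0.126, adjusted p = 0.000147). In HCC1937-EV at 24 h 3 were called higher and none lower, beside 8.62% and 5.12% of all tested genes, among them JUN by 0.55 (SE 0.123, adjusted p = 0.00897).

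Between the lines FOSL1, an AP-1 partner of JUN, was higher in untreated HCC1937-OE-BRCA1 by 3.47 (SE 0.133), JUN by 2.18 (SE 0.122) and RELB, a subunit of the alternative NF-kB pathway, by 2.05 (SE 0.186). In all 8 of the 11 were called higher and 2 lower in the untreated lines, beside 39.4% and 33.3% of all tested genes, with a median of 1.23 beside 0.1065 over all tested genes. At 24 h 9 were called higher and 2 lower, beside 39.9% and 34% of all tested genes, and NFKB2 was among the lower, by -1.66 (SE 0.127).

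The 7 genes listed as NF-kB feedback had calls in both directions with olaparib. None of the 7 was called at 12 h in HCC1937-OE-BRCA1 by edgeR, beside 1.7% of all tested genes called higher and 0.605% lower. At an unadjusted p under 0.05 there were 3, and DESeq2 called 1 (CYLD). At 24 h in this line CYLD, a deubiquitinase, was called higher by 0.50 (SE 0.119) and NFKBIB, an IkB, lower, with -0.77 (SE 0.164), where 4.71% and 3.55% of all tested genes were called. The CYLD call was lost without untreated replicate 3 (adjusted p = 0.0578) or 24 h replicate 3 (0.0544), within 0.00129 to 0.0814 over 15 alternatives. The NFKBIB call was lost without untreated replicate 2 (0.0506), within 1.85e-05 to 0.0506 over 15. The median of the list at 24 h was 0.103, beside 0.0243 over all tested genes. Between the untreated lines 6 of 7 were called higher in HCC1937-OE-BRCA1, beside 39.4% of all tested genes, led by BIRC3, an inhibitor of apoptosis, with 1.84 (SE 0.195), and by TNIP1 with 1.21 (SE 0.0987).

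Cytokine messages are unstable, and proteins that act on them, most through AU-rich elements, set part of their level. Of 7 genes for such proteins none was called at 12 h in HCC1937-OE-BRCA1 by edgeR, beside 1.7% of all tested genes called higher and 0.605% lower. At an unadjusted p under 0.05 there were 3, and DESeq2 called 1 (ZFP36L2). At 24 h edgeR called 1 higher and 2 lower, beside 4.71% and 3.55% of all tested genes. ZC3H12A, the endonuclease Regnase-1 that degrades IL6 mRNA, was the one called higher, by 0.55 (SE 0.143), a call lost without untreated replicate 1 (adjusted p = 0.051), 24 h replicate 1 (0.0677) or 24 h replicate 2 (0.0957), within 6.16e-06 to 0.0957 over 15 alternatives. HNRNPD, with -0.36 (SE 0.104), and KHSRP, with -0.35 (SE 0.0842), were the ones called lower. ZFP36, which encodes tristetraprolin, the destabiliser of TNF mRNA, was higher in untreated HCC1937-OE-BRCA1 than in HCC1937-EV by 3.19 (SE 0.134, adjusted p = 9.36e-15, edgeR), and ZFP36L1 by 2.46 (SE 0.0964).

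Other cytokines of epithelial inflammation were not called with olaparib in HCC1937-OE-BRCA1, 0 of the 4 tested among 11 at 12 h and 24 h by edgeR, with 1 at an unadjusted p under 0.05 at each time and 1 called by DESeq2 at 24 h (CSF1). Between the lines 3 of the 4 were called higher untreated and 4 at 24 h, beside 39.4% and 39.9% of all tested genes. CSF1, the macrophage growth factor, had 0 counts in untreated HCC1937-EV and was at least 1110-fold higher in untreated HCC1937-OE-BRCA1 (68.6 ± 6.49 CPM). CSF1 passed the filter on low counts through HCC1937-OE-BRCA1, which favours such a call. IL11, a further gp130 cytokine, was higher by 4.36 (SE 0.354) in untreated HCC1937-OE-BRCA1. In HCC1937-EV IL11 went from 13 to 40 counts at 24 h (log2 1.53, SE 0.453, adjusted p = 0.0308, edgeR). It was the 1 called of 3 genes with a fold, beside 8.62% of all tested genes called higher. The call was lost without untreated replicate 1 (adjusted p = 0.11), untreated replicate 2 (0.111), 24 h replicate 1 (0.0674) or 24 h replicate 2 (0.119), within 0.0178 to 0.119 over 14 alternatives.

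For the 2 members with a mean of at least 5 CPM, the genes with the most similar pattern were sought over the 18 libraries after the mean of each line was removed, among 11504 genes. RTP4 (Pearson r = 0.944), HERC5 (0.928) and MAGED1 (0.925) were most like CXCL1. CXCL1 had 0 counts in every HCC1937-EV library, so its pattern came from the HCC1937-OE-BRCA1 libraries alone. That favours genes that varied little within HCC1937-EV. PCDH1 (0.928), HIP1R (0.925) and HELZ2 (0.921) were most like LIF. The libraries share depth and condition, and these values are a description only.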

How the data were processed

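RNA-seq was analysed in 18 HCC1937 libraries from TRIzol RNA and the NEBNext Ultra II kit. The authors deposited raw read counts per gene, and the submitters' processing notes name HISAT2, featureCounts, DESeq2 and GRCh38. Versions, annotation and strand setting are not given in the sources used here. The 18 single tables equalled the columns of the joint table, and 99.78% of identifiers matched a symbol. The lowest total of a deposited gene was 2 counts. No batch is given in the labels.

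Counts were fitted with edgeR 4.0.16 (R 4.3.3) by the quasi-likelihood test in 1 model of 6 conditions, after filterByExpr and TMM scaling, and p-values were adjusted over 18335 genes by the Benjamini-Hochberg method with a threshold of 0.05. Where a group had 0 counts, the fold is a lower bound against 3 counts over the group. Intervals of ratios are 95% and cover counting error only. The biological coefficient of variation was 12.9%. The alternatives were DESeq2 1.42.0 (size factors and its Wald test), other filters, a minimum log2 change of 1, a replicate block, a correction for GC content and length (mgcv 1.9.3), a fit of only the libraries compared, and leaving out each library. The steps were tested on simulated data. Promoters came from RefSeq (GRCh38.p14, 9 of 10 members matched, LIF not among them). Named list genes were the called ones with the largest change, at most 3 per list and comparison. A gene with few or no counts in 1 line could pass the filter through the other line, which favours a call between the lines. The members and lists were chosen with earlier results of these data known.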

Additional observations from a re-analysis of the deposited data

Results flagged for a closer look

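Of the 10 cytokine and chemokine genes the difference of the 24 h response could be tested in 4 (IL1A, IL1B, CXCL2 and LIF), and edgeR called none, with 1 at an unadjusted p under 0.05 and 0 called by DESeq2. Among pathway genes with a fold it called 2 of 7 receptors, 1 of 3 other cytokines and 4 of 11 transcription factors. It also called 3 of 7 NF-kB feedback genes and 3 of 7 genes of cytokine mRNA decay. Over all tested genes 8.16% were called with a higher response and 11.2% with a lower one. The called genes with the 3 largest differences per list, and BRCA1, follow, which leaves out NFKBIZ among the transcription factors. The values are the log2 response in HCC1937-OE-BRCA1 minus that in HCC1937-EV, and the test was the interaction term with Benjamini-Hochberg adjustment over all tested genes. Among the receptors, IL1R1, which binds IL-1, differed by 1.05 (adjusted p = 0.0249) and IL1RAP by 0.82 (adjusted p = 0.026). The gp130 cytokine IL11 differed by -1.84 (adjusted p = 0.0171). Among the transcription factors, NFKB2 differed by -1.16 (adjusted p = 0.00036), ATF3 by 0.92 (adjusted p = 0.000525) and JUN by -0.72 (adjusted p = 0.00629). Among the NF-kB feedback genes, BIRC3 differed by 1.30 (adjusted p = 0.00446), CYLD by 0.87 (adjusted p = 0.00232) and NFKBIB by -0.80 (adjusted p = 0.0217). Within the lines at 24 h, edgeR called BIRC3 lower in HCC1937-EV and did not call it in HCC1937-OE-BRCA1. Among the genes of cytokine mRNA decay, HNRNPD differed by -0.67 (adjusted p = 0.00477), ZFP36L1 by 0.43 (adjusted p = 0.0254) and KHSRP by -0.42 (adjusted p = 0.0177). BRCA1 itself differed by 0.54 (adjusted p = 0.023). NFKB2, ATF3, JUN, BIRC3, CYLD and HNRNPD kept their calls when any single library was left out, and the others lost theirs in at least 1 such fit. With the correction for GC content and length the calls of IL1R1, IL1RAP, CYLD, NFKBIB, KHSRP and BRCA1 were lost.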

How the results depend on the processing

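The counts of members called were the same with DESeq2 size factors and with the replicate block, which gave 5 members at 24 h in HCC1937-OE-BRCA1. The replicate numbers did not pair the libraries, since no comparison had all 3 correlations of same-numbered deviations over 0.1 (range -0.424 to 0.297). With at least 10 counts required in every library 1 member could be called at 12 h and at 24 h in HCC1937-OE-BRCA1 and 1 between the lines at each time, because 1 member, LIF, remained. With an absolute log2 change over 1, or with only the libraries compared, 1 member was called at 12 h in HCC1937-OE-BRCA1, and the latter gave 2 between 12 h and 24 h. The correction for GC content and length, with or without the replicate block, gave 1 member with a called difference of the 24 h response. Leaving out 1 library each gave 0 to 2 members at 12 h and 2 to 5 at 24 h in HCC1937-OE-BRCA1.

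Directions turned among values that were not called, for causes that were not tested. In HCC1937-EV at 24 h the correction gave 0.0108 for IL1A and -0.0907 for LIF (0.008 and -0.0909 with the replicate block), and CEBPB, called otherwise, gave -0.12 in both. For LIF from 12 h to 24 h in HCC1937-OE-BRCA1 it gave 0.0883 and 0.0886. Leaving out a library gave, in HCC1937-EV at 12 h, -0.49 to 0.64 for IL1A, -0.33 to 1.18 for CXCL2 and -0.0393 to 0.34 for LIF. At 24 h it gave -0.62 to 0.35 for IL1A and -0.83 to 0.46 for CXCL2, and from 12 h to 24 h -0.96 to 0.43 for IL1A and -0.21 to 0.17 for LIF. The difference of the 12 h response of CXCL2 ran from -0.73 to 0.78. Over the log2 fold changes of members and named list genes, 2197 alternative values kept their direction and side of the threshold, 189 lost the call, 8 gained one and 25 turned direction. TNF, CXCL3 and CCL20 had too few counts for a change to be detectable at this depth.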
